A study of Rattus norvegicus with 3 samples.

Results

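Transcript levels on the rat expression array labelled 0.1 h were set against those on the array labelled 0.0 h, probe set by probe set. Each array came from 1 sample of total RNA in a time course of 3 arrays, at 0.0 h, 0.1 h and 1.0 h. The labels name the pineal gland and the adrenal medulla together as the source of all 3 samples. They do not say which of these tissues each RNA came from or whether the arrays were labelled alike, so a difference of tissue or of labelling between the arrays cannot be told apart from one of time. The strain, sex and age of the rats, how many animals were pooled, the agent behind the time course and what 0.1 h was counted from are not stated in the labels. Of 8740 probe sets that are not controls, 4737 (54.2%) lay above an intensity floor of 263.9 on both arrays and are the ones compared. The floor is the pooled 40th percentile over the 3 arrays. Another 547 probe sets were above it at 0.1 h only, 399 at 0.0 h only, and 3057 on neither array.

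With 1 array per label there is no replicate check on any difference, no p-value can be given, and precision is limited by the number of arrays. Every fold below therefore describes these arrays. It was taken after the arrays had been scaled to equal medians, while the intensities quoted are those deposited. Intensities of different genes come from different probes and are not compared with each other. Where the 1.0 h value is given, it is read against the same 0.0 h array, so an error of that array enters both differences. In a bulk sample, fewer cells of a type and less RNA per cell cannot be told apart.

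The pineal gland is a small neuroendocrine organ whose pinealocytes turn tryptophan into melatonin at night, driven by noradrenaline acting through cyclic AMP and calcium. The chromaffin cells of the adrenal medulla belong to the sympathetic system and release catecholamines from secretory granules. In both, a stimulus reaches the nucleus through kinase cascades within minutes, and mRNA for metabolic, structural and secretory proteins as a rule turns over more slowly than that of the immediate early genes.

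A probe set or gene is counted as higher or lower where the 0.1 h and 0.0 h arrays were 2-fold or more apart. By this measure 294 probe sets were higher at 0.1 h, which is 6.21% of those compared, and 206 (4.35%) were lower. The lean towards higher values depended on the scaling. The values as deposited gave 258 higher and 227 lower, quantile normalisation 248 and 232, and cyclic loess normalisation 260 and 226. Scaling on spike-in controls gave 134 and 459. Most probe sets stood close to their 0.0 h value: 69.8% lay within 1.5-fold and 89.4% within 2-fold. Past 3-fold there were 66 higher and 24 lower, and past 4-fold 19 and 6. Read gene by gene, each from its brightest probe set, 170 of 2992 genes were higher (5.68%) and 141 lower (4.71%), around a median log2 difference of -0.003. The highest differences were held by a pair of probe sets that stood apart from the rest. The probe set for Jtb, a transmembrane protein gene, read 2372 on the 0.0 h array, 59359 on the 0.1 h array and 3590 on the 1.0 h array; values below are in this order. A probe set for Cds1, which encodes a CDP-diacylglycerol synthase of phospholipid synthesis, had 1949, 37205 and 2376, a log2 difference of 4.29. A second Cds1 probe set, designed from the same sequence record, had 13147, 15038 and 10349, a log2 difference of 0.23, and the remaining one 553.0, 656.5 and 662.6. Jtb had no other probe set, so its 0.1 h value has no such check.

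**Figure D1:**
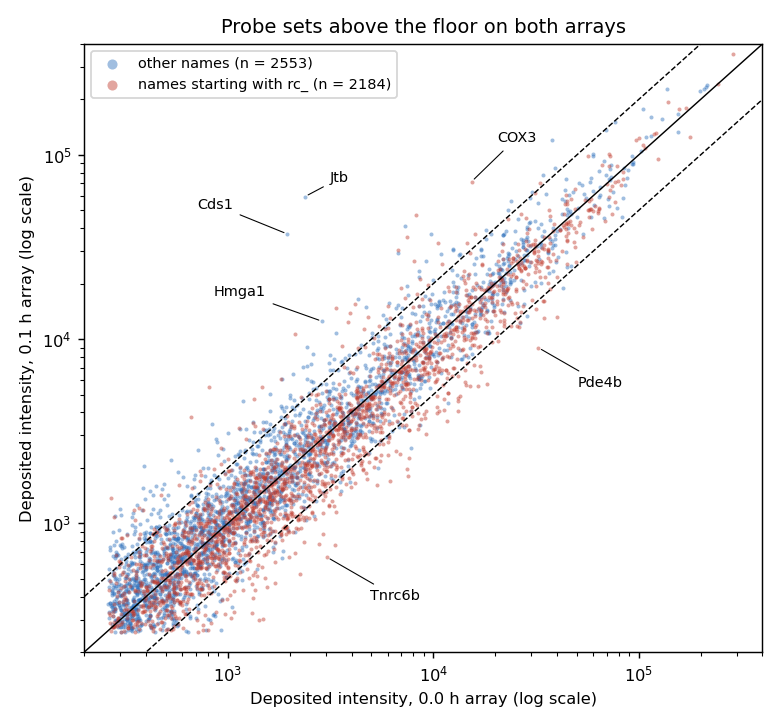
Deposited intensity of each of the 4737 probe sets on the 0.0 h array (x axis) and the 0.1 h array (y axis), both on log scales; the solid line is equality and the dashed lines are 2-fold. Jtb and a Cds1 probe set lie far above all others, and red points, whose names start with rc_, crowd below the line (2184 red and 2553 blue points).

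How far 1 probe set can be trusted was read from genes and sequence records measured more than once. The pooled SD of the log2 difference between probe sets of the same gene was 0.47. The spread over all probe sets, from the median absolute deviation, was 0.53. Outliers weigh on the first of these measures and hardly on the second, so their sizes are not compared. Of 724 genes with at least 2 measured probe sets, 441 (60.9%) had differences of a single sign. For 449 records that carry a plain probe set and a companion probe set of the same record, the signs matched in 330 (73.5%), and the median gap between the 2 log2 differences was 0.28. Across these records the 2 differences had a Pearson correlation of 0.64 and a Spearman correlation of 0.66; the points share both arrays and their source sequence. Where the plain probe set was at least 2-fold apart (56 records), the companion was at least 2-fold apart the same way in 23 and had the opposite sign in 2. The gap for Cds1 was 4.06, and the next largest gap was 2.19.

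Among genes read at 2-fold or more from their brightest probe set, 77 had another measured probe set. In 21 of them every measured probe set was at least 2-fold apart the same way, 13 higher and 8 lower, and in 18 another probe set had the opposite sign. The 13 higher genes were App, Cyp51, Etfdh, Fis1, Fkbp2, Grina, Hmga1, Map2k5, Sdc4, Sfpq, Slit1, St13 and Tap1. The 8 lower genes were Higd1a, Mrps31, Prdx3, Sos1, Stk38, Tmem126b, Usp40 and Ylpm1. All these members were picked for their agreement on these arrays, so the agreement is a description of them.

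**Figure D2:**
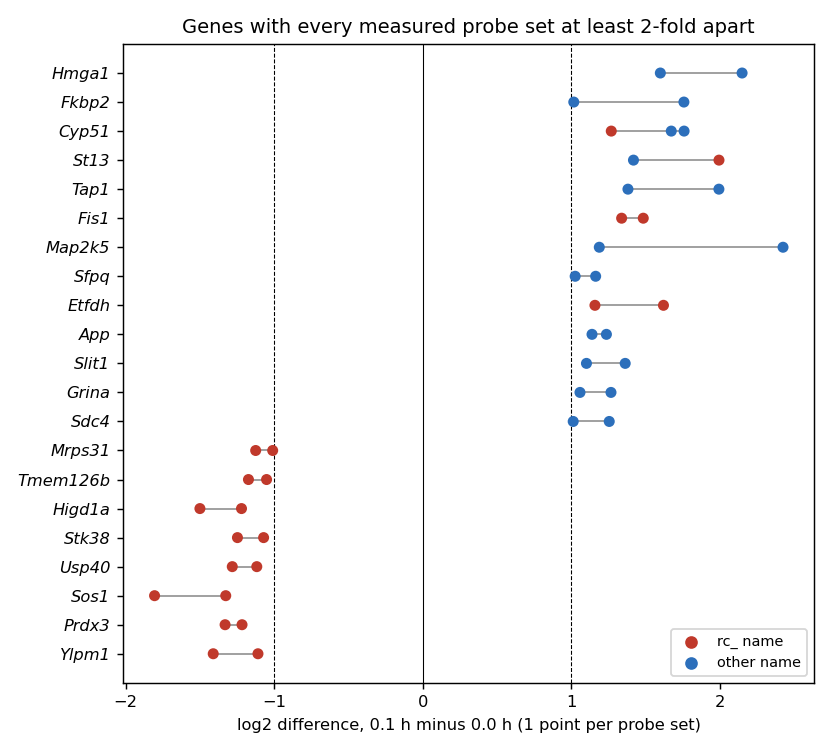
The log2 difference, 0.1 h minus 0.0 h, of every measured probe set (points) of the 21 genes whose probe sets all passed 2-fold (dashed lines), joined by a grey line per gene. Cyp51 has 3 probe sets and the other genes 2; all points of the 8 lower genes are red, for names starting with rc_.

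The direction of a difference went with the way the probe set was named. Names starting with rc_ mark, in the manufacturer's scheme, targets taken as the reverse complement of the recorded sequence, mostly expressed sequence tags read from the 3' end of a cDNA. Such probe sets made up 46.1% of those compared, 27.2% of the higher ones and 78.2% of the lower ones. Their median log2 difference was -0.10, with 80 of 2184 (3.66%) higher and 161 (7.37%) lower. The 2553 other probe sets had a median of 0.14, with 214 (8.38%) higher and 45 (1.76%) lower. Names marking a coding sequence or an exon went farthest up, with a median of 0.31 over 291 probe sets, 43 (14.8%) higher and 3 (1.03%) lower.

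The same held inside genes. In 220 genes with probe sets of both kinds, the rc_ reading was the lower in 136, and the median gap was -0.17. Between the 1.0 h and the 0.0 h array the medians were nearly level, at -0.01 for rc_ names and 0.009 for the others. Probe sets with the suffix _s_at, which can match several transcripts, had 12.9% higher and 1.23% lower, against 4.39% and 5.11% for plain names. Split into 4 bands of mean intensity, the share higher was 7.43%, 4.98%, 6.25% and 6.17% from the dimmest band up, with no steady trend. Probe sets for the 3' end of beta-actin were 10.4-fold and 17.8-fold brighter than those for its 5' end at 0.0 h and 0.1 h and at least 29.1-fold at 1.0 h, where the 5' end was below the floor. For GAPDH the ratios were 15.3, 18.6 and 14.1 at 0.0 h, 0.1 h and 1.0 h; the part of RNA integrity in the split by name was not tested. In what follows each family median is given with its value after rc_ and other names had been centred apart, a reading chosen after the split was seen. Counts of higher and lower members are read against the 5.68% higher and 4.71% lower over all genes. This base takes no account of names. Among probe sets, rc_ names had 3.66% higher and 7.37% lower, and other names 8.38% and 1.76%. Of 40 lists with at least 10 measured members 29 had a positive median, and 9 of these were negative with names centred apart. With the mean of the 9 spike-in controls made equal between the arrays every log2 difference drops by 0.27. A family median that is positive but under 0.27 turns negative on that scale, as 23 of the 29 did. The controls did not move alike, and their median log2 difference was 0.23. At 0.0 h and 0.1 h the BioB-M control had 3628 and 3303, and the CreX-5 control had 36775 and 57136.

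**Figure D3:**
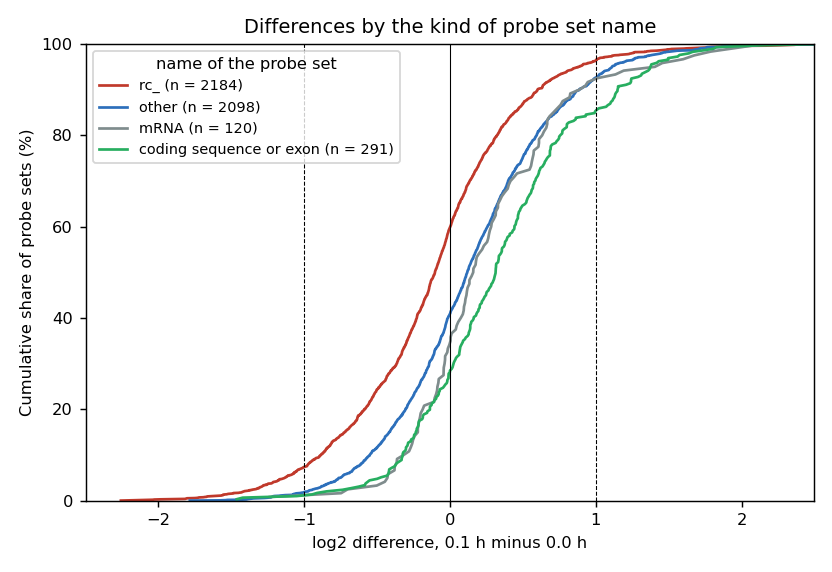
Cumulative share of probe sets (y axis, percent) up to each log2 difference, 0.1 h minus 0.0 h (x axis), by kind of probe set name; dashed lines mark 2-fold. The rc_ curve (n = 2184) lies left of the others over most of the range and the curve for coding sequence or exon names (n = 291) lies right, with medians of -0.10 and 0.31.

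The promoters of genes that stood apart were searched for short motifs in the RefSeq table of the assembly GRCr8, from 250 bases before to 50 after each gene's start, on both strands. Of the 2992 measured genes 2476 were matched, among them 141 higher and 116 lower ones. The cyclic AMP response element, TGACGTCA, through which noradrenaline acts on pineal genes, was in 1.91% of all 27457 promoters, in 2.63% of those of measured genes, in 2.84% (4) of the higher genes and in 6.03% (7) of the lower genes. The share among the higher genes was thus near that of the measured genes, and the lower genes had the larger share. The stretches around the element in the 4 higher genes are shown as examples only, with capitals marking it. The 7 lower genes with it are named below.
Asmt: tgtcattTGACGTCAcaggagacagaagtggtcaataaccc
Cdc42: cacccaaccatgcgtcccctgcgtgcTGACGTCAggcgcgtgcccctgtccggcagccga
Glod4: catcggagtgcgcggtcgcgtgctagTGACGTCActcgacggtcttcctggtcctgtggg
Il6: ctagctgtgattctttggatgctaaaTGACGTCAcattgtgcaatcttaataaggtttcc
All 4 lie on minus strands, at chr12:21423546-21423586 (Asmt), chr5:154876537-154876596 (Cdc42), chr10:61594121-61594180 (Glod4) and chr4:5894704-5894763 (Il6) of GRCr8. The first base of the element lay 243 bases before the start of Asmt, 162 before Il6, 59 before Cdc42 and 43 before Glod4. The 7 lower genes with the element were Dhrs7b, Foxd3, Myl6, Nubpl, Plk4, Vps26a and Zfp426.

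These 4 genes differed by between 2-fold and 5-fold. Asmt, the last enzyme of melatonin synthesis, had intensities of 5714, 13469 and 9488 and was 2.41-fold higher at 0.1 h. The glyoxalase domain gene Glod4 had 3364, 14751 and 10709 (4.49-fold higher), and the cytokine gene Il6 had 451.8, 907.1 and 1134 (2.05-fold higher). Cdc42, a small GTPase that shapes the actin skeleton, had 15996, 37424 and 19113, and its 4 measured probe sets had log2 differences from 0.28 to 1.26. So Asmt, Glod4 and Il6 stayed above their 0.0 h value at 1.0 h, whereas Cdc42 was back near it.

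The other motifs were spread as follows. The E-box CACGTG was in 9.25% of measured genes, 7.80% of higher and 15.5% of lower genes, and the Ets site CCGGAAG in 15.5%, 7.09% and 20.7%. CCAAT was in 38.0%, 44.0% and 39.7%, and the Sp1 box GGGCGG in 63.5%, 61.0% and 67.2%. The AP-1 site TGACTCA was in 3.63%, 4.26% and 1.72%, the Crx and Otx site TAATCC in 5.41%, 6.38% and 4.31%, and a pair of heat shock units, GAANNTTC, in 5.45%, 4.96% and 5.17%. The D-box TTATGTAA was in 0.28% of measured genes and in 0 of the higher and lower ones. Over all promoters of the table these shares were 6.65% for the E-box, 9.22% for the Ets site, 37.7% for CCAAT, 34.9% for the Sp1 box, 4.53% for AP-1, 7.11% for the Crx and Otx site, 8.34% for the heat shock pair and 0.88% for the D-box. The E-box and Ets shares were thus higher among the lower genes than among the higher ones, with median GC contents of 62.3% and 60.7%. They rest on 18 and 24 of 116 lower genes and on 11 and 10 of 141 higher genes. Names starting with rc_ made up 78.2% of the lower and 27.2% of the higher probe sets. The part of this in the motif shares, those of the cyclic AMP response element included, was not tested. A match says only that these letters are in the window.

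Kinases that carry a signal from the membrane to the nucleus were among the genes with several readings. Map2k5, the kinase above ERK5, had 2107, 4692 and 2166 on its brightest probe set and 391.7, 2056 and 1503 on the other, log2 differences of 1.19 and 2.43. Map2k2, a kinase above ERK1 and ERK2, had 4805, 13219 and 11082, and its 3 probe sets had log2 differences from 0.99 to 2.54. The p38 kinase gene Mapk14 had 6004, 12295 and 6646, with differences from 0.44 to 1.51 over 4 probe sets. All readings of these 3 genes were higher at 0.1 h, and on the brightest probe set only Map2k2 kept a 2-fold difference at 1.0 h. For Map2k1, partner of Map2k2, the probe sets disagreed, with 1.97 and -0.03. The list of protein kinases as a whole was spread about 0. Of 42 measured members 5 were higher (11.9%) and 1 lower (2.38%), and the median was 0.04 (-0.009 with names centred apart). The lower one was Pik3cd, a lipid kinase subunit of leukocytes counted in this list by its symbol, with 2142, 939.2 and 3432. Outside the list, Sos1, the exchange factor that switches on Ras ahead of these kinases, had 8381, 3267 and 6452, with log2 differences of -1.33 and -1.80. Stk38, a kinase of the Hippo pathway, had 14242, 5863 and 13771 and was 2.37-fold lower.

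Signalling through G proteins and cyclic AMP had 2 of 48 measured members higher (4.17%) and 4 lower (8.33%), with a median of 0.07 (0.03 centred apart). The anchoring protein gene Akap11, which tethers protein kinase A, had 2428, 9027 and 4873, and Rgs4, which shortens G protein signals, had 759.7, 1996 and 1211, a 2.69-fold higher value. In the other direction stood Pde4b and Pde4c, phosphodiesterases that break down cyclic AMP. Pde4b had 32420, 8990 and 30497, and Pde4c had 636.9, 257.8 and 648.5, a 2.41-fold lower value that lies at the floor. Another anchoring protein gene, Akap8, had 11772, 4500 and 6024 (2.56-fold lower). Prkab1, a subunit of the AMP-activated kinase that is counted in this list by its symbol, had 1042, 353.3 and 623.1 (2.88-fold lower). Both phosphodiesterase genes were near their 0.0 h value again at 1.0 h, whereas Akap8 stayed lower. Protein phosphatases had 2 of 45 higher (4.44%) and 3 lower (6.67%), near the shares over all genes. Their median was 0.09 (-0.01 centred apart). Ptprm, a receptor phosphatase of cell contacts, had 1322, 3487 and 2057, and Ptpn3 had 798.0, 265.0 and 728.5.

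Mitochondrial genes outside the respiratory chain stood on both sides. Fis1, which takes part in mitochondrial fission, had 4607, 11385 and 6268 on 1 probe set and 303.9, 830.8 and 225.5 on the other. Etfdh, which passes electrons from fatty acid oxidation to the chain, had log2 differences of 1.16 and 1.62, and the uncoupling protein gene Ucp2 had 12454, 30801 and 17497, a 2.53-fold higher value. These were up at 0.1 h and within 1.5-fold of 0.0 h at 1.0 h on the brightest probe set. In contrast, Higd1a, a hypoxia-induced protein of the inner membrane, had 16959, 7115 and 18051, with log2 differences of -1.22 and -1.50. The mitochondrial ribosomal gene Mrps31 had 6109, 2964 and 6015 and was 2.01-fold lower, and Tmem126b, an assembly factor of complex I, had 10432, 4920 and 5702 and was 2.07-fold lower. Mitochondrial channels, carriers and import genes together had 3 of 24 measured members higher, none lower and a median of -0.04 (0.07 centred apart).

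By complex of the respiratory chain, complex I had 6 of 26 measured members higher (23.1%) and none lower, with a median of 0.66. Complex IV had 5 of 11 higher (45.5%) and 1 lower (9.09%), with a median of 1.00. These medians were 0.68 and 1.03 with names centred apart, although 21 and 8 of the members were read from rc_ probe sets. Ndufb1, a subunit of the membrane arm, had 579.0, 1619 and 1497 and was 2.86-fold higher. Cox5b and Cox6b1, nuclear subunits of cytochrome oxidase, had 3611, 9160 and 5698 and 7291, 16715 and 6116. The mitochondrially encoded COX2 had 10965, 25686 and 17782 (2.40-fold higher). ATP synthase had 1 of 10 higher and a median of 0.21 (0.12 centred apart); its 2-fold member, Atp5pd, a stalk subunit, had 2416, 6073 and 2975. For Atp5f1e, another subunit, a dim probe set had 269.7, 1367 and 540.3 and the brighter companion of the same record 15194, 16836 and 11271, a log2 difference of 0.18. The 5 measured genes of complexes II and III had a median of 0.59 (0.66 centred apart), none 2-fold higher and 1, Sdha, lower. In the citric acid cycle none of 17 members was 2-fold apart (median 0.04, and 0.12 centred apart), and in glycolysis 1 of 15 was higher (median 0.09, and -0.02 centred apart). That gene, Pfkfb1, which sets the level of the glycolytic activator fructose 2,6-bisphosphate, had 686.0, 1747 and 1348.

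In sterol and fatty acid metabolism Cyp51, the lanosterol demethylase of cholesterol synthesis, was higher on all 3 probe sets. Its brightest had 2066, 6437 and 4915, the next 344.1, 1138 and 473.1, and the dimmest 285.7, 672.7 and 410.2. Each was higher on the 0.1 h array than on either other array. Of 42 measured members of the list 2 were higher and 2 lower (4.76% each, near the shares over all genes), with a median of 0.17 (0.13 centred apart). Acads, the first enzyme of short-chain fatty acid oxidation, had 391.9, 884.5 and 780.6. Abcd3, which carries fatty acids into peroxisomes, had 42735, 18914 and 10050, and Acsl4, which activates arachidonic acid, had 3497, 1682 and 3651. The other probe sets of Abcd3 and Acsl4 were lower by less, with log2 differences of -0.18 and -0.42. Abcd3 was lower still at 1.0 h on its brightest probe set, while Acsl4 was back at its 0.0 h value.

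Genes that handle oxidants and foreign compounds had higher and lower members. Of 38 antioxidant and glutathione genes 6 were higher (15.8%, against 5.68% of all genes) and 2 lower (5.26%, against 4.71%). Their median was 0.19 (0.10 centred apart). Nqo1, a quinone reductase, had 2607, 8355 and 1721, so it was above 0.0 h at 0.1 h and below it at 1.0 h. Sod3, the extracellular superoxide dismutase, had 1929, 4295 and 2524, and Cat, catalase, had 1127, 3272 and 2229 on its brightest probe set and a log2 difference of 0.05 on the other. The mitochondrial peroxidase gene Prdx3 went the other way on both probe sets, with 14454, 5617 and 11723 on the brighter and 8727, 3670 and 6465 on the other. Txnip, which binds and blocks thioredoxin, had 26458, 12414 and 18174 on 1 probe set and a log2 difference of -0.04 on the other. Cytochromes P450 and conjugating enzymes had 3 of 33 higher (9.09%) and 1 lower (3.03%), with a median of 0.15 (0.05 centred apart). Ugt2b and Sult1c3, which couple glucuronic acid and sulfate to their substrates, had 486.6, 1642 and 937.5 and 432.5, 1423 and 383.2. Both belong, like Gstm7 among the glutathione transferases (2.53-fold higher), to families of closely similar genes that a probe set may not separate. Por, the reductase that feeds electrons to the P450 enzymes, had 1902, 3740 and 2377, with log2 differences of 1.01 and 0.84. The lower gene, the epoxide hydrolase Ephx2, had 3 probe sets from -1.22 to 0.49.

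Chaperones and folding factors had 5 of 42 measured members higher (11.9%, against 5.68% of all genes) and none lower (against 4.71%). Their median was 0.32 (0.26 centred apart). Fkbp2, a prolyl isomerase of the endoplasmic reticulum, had 1830, 6046 and 3458, and its probe sets had log2 differences of 1.76 and 1.02. St13, which bridges Hsp70 and Hsp90, had 3132, 8181 and 4255, with 1.42 and 1.99. Canx, the membrane chaperone calnexin, was higher on all 5 of its measured probe sets, from 0.44 to 2.30. These 3 genes were higher on every measured probe set, whereas Dnaja2, an Hsp70 cochaperone, had 3 probe sets from -0.06 to 1.47.

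Genes of protein breakdown were counted as proteasome and as ubiquitin genes, and the difference between these lists was not tested. The proteasome had 1 of 27 measured members higher, 1 lower and a median of 0.16 (0.13 centred apart): Psmd2, a base subunit of the regulatory particle, had 7540, 17400 and 10721, and Psme4, an activator subunit, had 1263, 507.5 and 1504. Ubiquitin conjugation and removal had none of 28 higher (against 5.68% of all genes) and 4 lower (14.3%, against 4.71%). Their median was -0.13 (-0.07 centred apart), with 22 of the 28 read from rc_ probe sets. Nedd8, a ubiquitin-like modifier of cullin ligases, had 39873, 13246 and 39738 and was 2.94-fold lower. Ubac2 had 2239, 532.6 and 2155 (4.11-fold lower), and the deubiquitinases Usp37 and Usp40 had 8504, 3398 and 6999 and 3114, 1251 and 2422. Usp40 was lower on both its probe sets. All 4 genes were within 1.5-fold of 0.0 h at 1.0 h.

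RNA processing genes had 2 of 38 measured members higher (5.26%) and 5 lower (13.2%, against 4.71% of all genes). Their median was -0.17 (-0.13 centred apart), with 25 read from rc_ probe sets. Hnrnpf, a splicing regulator, had 9215, 26500 and 10821 and was 2.94-fold higher, and the helicase gene Dhx9 had 5167, 10120 and 4594. Rbm39, a splicing cofactor, was lower on both probe sets, with log2 differences of -2.08 and -0.89, and Cpsf7, of the cleavage complex that sets the poly(A) site, with -1.75 and -0.77. Tnrc6b, a partner of Argonaute in silencing by miRNAs, had 3035, 655.3 and 3278. Outside the list, Sfpq, a nuclear paraspeckle and splicing protein, had 5907, 12934 and 7451, and Ylpm1, a nuclear protein that binds RNA, had 15132, 5564 and 16150. Rbm39, Cpsf7, Tnrc6b and Ylpm1 were at or above their 0.0 h value at 1.0 h on the brightest probe set. Srpk2, a kinase of splicing factors and also among the 5 lower members, had 6136, 1707 and 4535, so it was still lower at 1.0 h, and a log2 difference of -0.24 on its other probe set. Translation factors had none of 24 at least 2-fold apart (median -0.11, and -0.06 centred apart), and ribosomal proteins had 4 of 40 higher and none lower (median 0.19, and 0.11 centred apart). Of these Rpl7a had 9924, 20837 and 16762, whereas the 3 probe sets of Rps15 ran from -0.59 to 1.02.

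**Figure D4:**
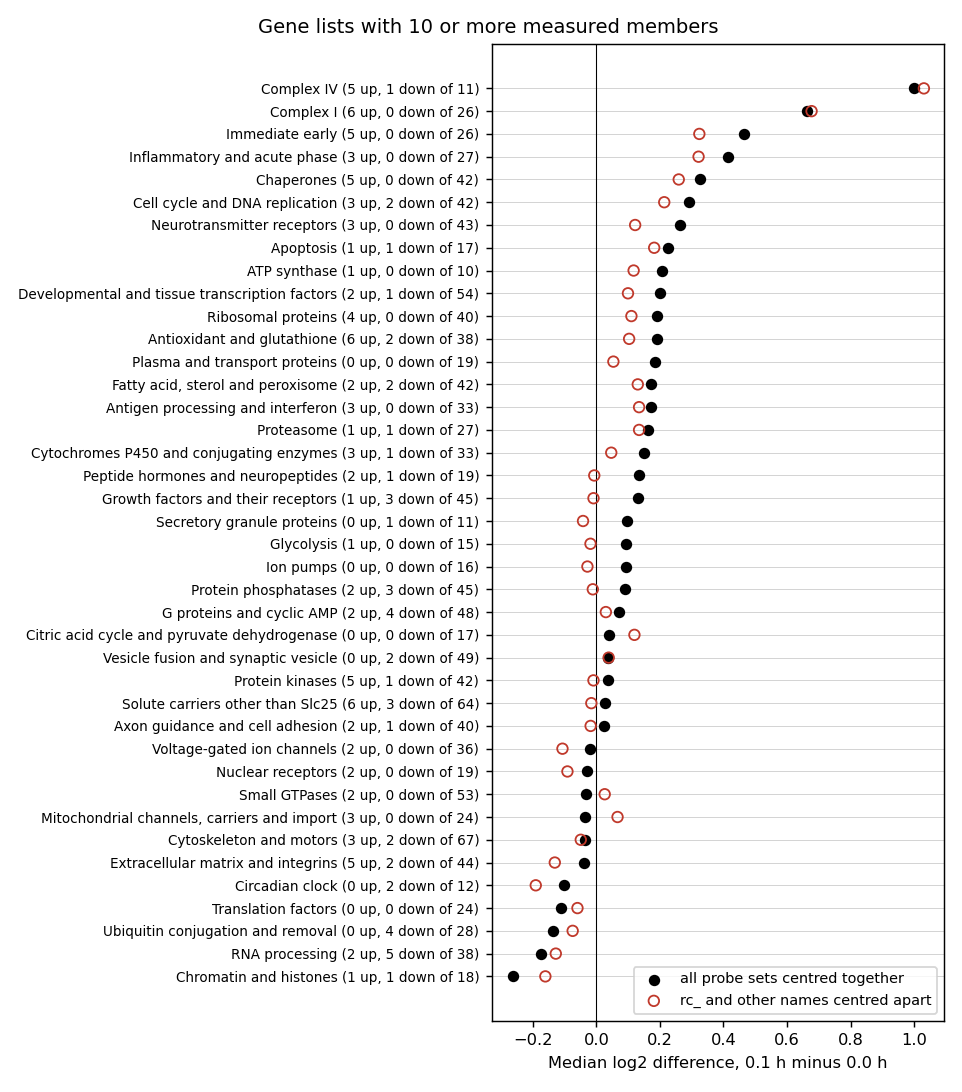
Median log2 difference, 0.1 h minus 0.0 h, of the measured members of each gene list with at least 10 of them (filled, all probe sets centred together; open, rc_ and other names centred apart), with the counts at least 2-fold up and down in brackets. Complex IV and complex I lie at 1.00 and 0.66, and among the filled points chromatin, RNA processing and ubiquitin genes lie lowest at -0.26, -0.17 and -0.13.

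Transport across the membrane had members on both sides. Solute carriers other than the mitochondrial family had 6 of 64 higher (9.38%) and 3 lower (4.69%), with a median of 0.03 (-0.02 centred apart). Slc14a1, a urea transporter, had 305.7, 771.8 and 336.4, and Slc27a1, which takes up fatty acids, had 1999, 4765 and 4354. Slc4a7, a sodium bicarbonate cotransporter, had 11651, 3582 and 10174 and was 3.18-fold lower, and Slc6a11, a GABA transporter, had 701.9, 306.1 and 359.8. Slc5a1 and Slc8a1, carriers of glucose and calcium coupled to sodium, were 2.74-fold and 2.68-fold higher on the brightest probe set, but the other probe set gave -0.35 and -0.05. Voltage-gated channels had 2 of 36 higher, none lower and a median of -0.02 (-0.11 centred apart). Both were inward rectifier potassium channel genes near the floor, counted in this list by their symbol. Kcnj8 had 324.4, 656.3 and 877.4 and Kcnj1 had 287.0, 568.9 and 605.0. None of 16 ion pump genes was 2-fold apart (median 0.09, and -0.03 centred apart).

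Neurotransmitter receptors, none of them read from an rc_ probe set, had 3 of 43 higher (6.98%, near the 5.68% of all genes) and none lower. Their median was 0.26 (0.12 centred apart). Of the 120 on the array the other 77 were below the floor on at least 1 of the arrays. Adra1d, an alpha-1 adrenoceptor, had 368.2, 821.7 and 633.9, and the somatostatin receptor gene Sstr4 had 399.9, 822.1 and 436.9. Grina, named for a glutamate-binding protein, is counted in this list by its symbol. It had 5039, 10255 and 7292 and was higher on both probe sets, with log2 differences of 1.06 and 1.27. Vesicle fusion genes, with a median of 0.04 on both readings, had none of 49 higher and 2 lower. These were the synapsin gene Syn2, with 1972, 921.9 and 1932, and the translocon gene Sec62, counted by its symbol, with 20636, 9727 and 19520. Of 11 secretory granule genes (median 0.10, and -0.04 centred apart) 1 was lower, Cpd, a carboxypeptidase that trims prohormones, with 1690, 785.0 and 1189.

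Among surface, matrix and skeleton genes, Sdc4, a heparan sulfate proteoglycan of adhesion sites, had 69228, 136492 and 125271 on its brighter probe set and 23945, 55854 and 27955 on the other, log2 differences of 1.01 and 1.26. App, the amyloid precursor protein gene, had 13419, 28882 and 17985 and 1839, 4234 and 2277, and the axon guidance ligand gene Slit1 had log2 differences of 1.10 and 1.36. Each was higher on both probe sets. Matrix and integrin genes had 5 of 44 higher (11.4%, against 5.68% of all genes), 2 lower (4.55%, against 4.71%) and a median of -0.04 (-0.13 centred apart). The protease gene Mmp7 had 267.7, 744.3 and 302.9, just above the floor at 0.0 h, and Col1a2, a chain of type I collagen, had 25426, 11842 and 23813. Sparc, a collagen-binding protein gene, had 4 probe sets from -0.67 to 1.35. Cytoskeleton and motor genes had 3 of 67 higher and 2 lower (median -0.04, and -0.05 centred apart). Tpm1, a tropomyosin that stabilises actin filaments, had 2528, 5927 and 2448, with log2 differences of 1.26 and 0.71. Small GTPases had 2 of 53 higher and none lower (median -0.03, and 0.03 centred apart), Cdc42 and Arf2, a GTPase of vesicle budding, with 362.1, 1259 and 764.3. Axon guidance and adhesion genes (median 0.02, and -0.02 centred apart) had 2 of 40 higher and 1 lower, the synaptic adhesion gene Nrxn3 with 7830, 2561 and 7288.

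The shares of genes of growth and of gene regulation are read against the 5.68% higher and 4.71% lower over all genes. Growth factors and their receptors had 1 of 45 higher and 3 lower, with a median of 0.13 that became -0.009 with names centred apart. The neurotrophin gene Bdnf had 913.2, 379.7 and 1065 on its brightest probe set and a log2 difference of -0.39 on the other, and Bmpr1a, a receptor for bone morphogenetic proteins, had 353.4, 961.2 and 207.3. Cell cycle genes had 3 of 42 higher, 2 lower and a median of 0.29 (0.21 centred apart). Pcna, the sliding clamp of DNA replication, had 18126, 39346 and 24639, with log2 differences of 1.15 and 0.95, and Cdk4 had 2610, 5861 and 3592. Both were higher at 0.1 h than on either other array, whereas the 2 probe sets of the cyclin gene Ccnd2 had opposite signs, with -1.02 and 0.64. Developmental transcription factors had 2 of 54 higher and 1 lower (median 0.20, and 0.10 centred apart). Nuclear receptors had 2 of 19 higher and none lower (median -0.03, and -0.09 centred apart). Nr4a1 was 1 of the higher ones, and the other was Rara, a retinoic acid receptor, with 2295, 4775 and 1404. Apoptosis genes had 1 of 17 higher and 1 lower (median 0.23, and 0.18 centred apart). Chromatin genes had a median of -0.26 over 18 members (-0.16 centred apart), with 1 higher and 1 lower. The higher one, Hmga1, which bends AT-rich DNA, had 2881, 12490 and 4054 and 604.5, 1790 and 869.6 on its probe sets. The lower one, the remodeller Chd2, had 11316, 4131 and 10556. Of 12 clock genes (median -0.10, and -0.19 centred apart) none was higher and 2 were lower: Cipc, a repressor of the clock, and Bmal1, whose probe sets had -1.003 and 0.34.

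In antigen processing and interferon response, 3 of 33 measured members were higher (9.09%, against 5.68% of all genes) and none lower. The median was 0.17 (0.13 centred apart), with 8 of the 33 read from rc_ probe sets. Tap1, which loads peptides for class I presentation, had 298.2, 759.1 and 1012 and 281.6, 1096 and 721.8 on its probe sets. Oas1a, an interferon-induced sensor of double-stranded RNA, had 1124, 2374 and 2967, and Ly6c, a surface antigen of leukocytes and endothelium, had 280.7, 763.2 and 1540. All 3 were at least as far above 0.0 h at 1.0 h on the brightest probe set. Ly6c and Oas1a have closely similar gene copies. Immediate early and inflammatory genes, with 5 of 26 and 3 of 27 higher and none lower, had medians of 0.46 and 0.41, and of 0.32 each with names centred apart. Peptide hormones, with a median of 0.13 (-0.0065 centred apart), had 2 of 19 higher and 1 lower, among them Agt, angiotensinogen, with 433.1, 879.3 and 216.5. Plasma proteins had none of 19 at least 2-fold apart (median 0.18, and 0.05 centred apart).

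Genes that crossed the floor give lower bounds, set against the floor itself. Vdr, the vitamin D receptor, had 141.8, 1299 and 921.7 and was at least 5.06-fold higher at 0.1 h. Hbe2, an embryonic globin gene with close copies, had 114.9, 1297 and 120.6 (at least 5.06-fold higher), and P2ry12, an ADP receptor of microglia and platelets, had 68.7, 752.6 and 668.6. Each of these has a single probe set, and at 1.0 h Vdr and P2ry12 were above the floor and Hbe2 below it. For Pth1r, the parathyroid hormone receptor, 1 probe set had 196.7, 2037 and 297.2 (at least 7.94-fold higher). Another was nearly level, with 1537, 1491 and 1834. The remaining Pth1r probe set was above the floor at 0.0 h and below it at 0.1 h, with 268.0, 104.9 and 316.8. In the other direction the forkhead factor gene Foxo1 had 812.5, 98.2 and 589.2 (at least 3.10-fold lower). Rock2, a kinase that contracts the actin skeleton, had 801.5, 221.2 and 1224 (at least 3.05-fold lower), and its other probe set 318.5, 199.6 and 253.1.

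**Figure D5:**
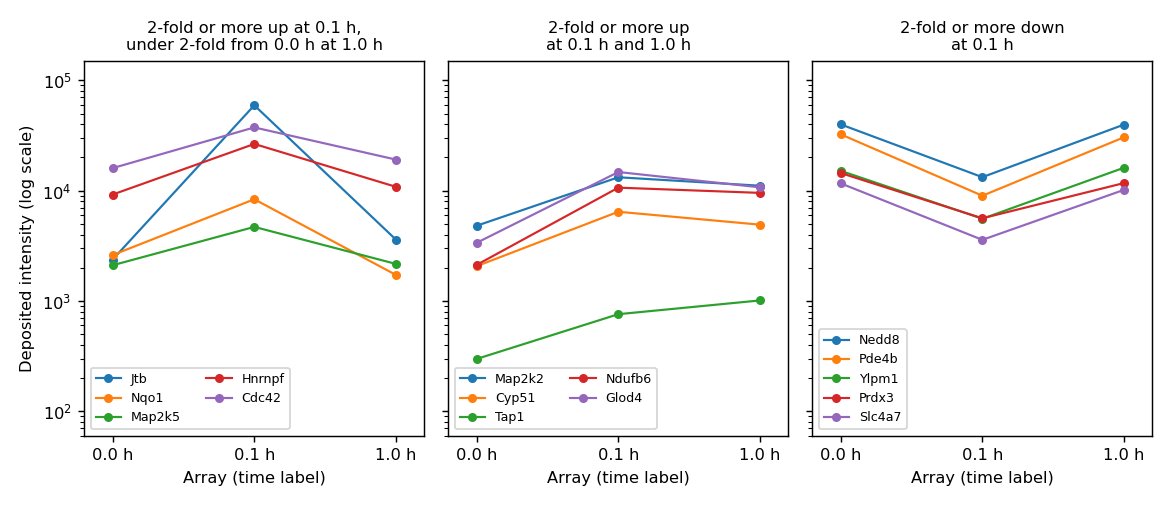
Deposited intensity (y axis, log scale) on the 0.0 h, 0.1 h and 1.0 h arrays of 15 genes, each read from its brightest probe set and chosen after the values were seen to show the patterns. Left, genes 2-fold or more higher at 0.1 h and under 2-fold from 0.0 h at 1.0 h, such as Hnrnpf (9215, 26500, 10821); middle, genes 2-fold or more higher on both later arrays, such as Cyp51 (2066, 6437, 4915); right, genes 2-fold or more lower at 0.1 h, such as Nedd8 (39873, 13246, 39738).

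The labelled tissues were checked against marker genes. Of 6 pinealocyte markers 5 were above the floor at 0.0 h and 6 at 0.1 h, with a summed intensity of 56233 and 61577, and of 5 chromaffin markers 2 on each array, with 65056 and 60342. The chromaffin sum is almost all Chgb (64172 and 59381), a granule protein gene of many endocrine cells. Pnmt, the enzyme that turns noradrenaline into adrenaline, had 607.3, 638.8 and 532.2 and so lay above the floor, while Th and Dbh, enzymes of catecholamine synthesis, were below it on both arrays. Leukocyte markers, given because immune genes are described above, had 6 of 8 above the floor on each array and sums of 5517 and 8095. Ptprc, the pan-leukocyte phosphatase CD45, had 284.0, 702.3 and 520.9 and Coro1a 448.5, 892.8 and 1915. In the other direction Cd74 had 538.6 and 389.4 at 0.0 h and 0.1 h, Cd53 was above the floor at 0.0 h only (347.3 and 241.1), and Itgam was below it on both arrays. Fibroblast and smooth muscle markers summed to 38977 and 26409 over 7 genes, all above the floor; without Col1a2 the other 6 summed to 13551 and 14568. Endothelial markers had 4 of 4 above it at 0.0 h and 2 at 0.1 h, with Pecam1 and Vwf below it at 0.1 h and sums of 3170 and 2122. Adipocyte markers had 4 of 5 above it on each array, with 26861 and 43465, of which Lpl made up 17032 and 30988. Cidea of the same list was lower, with 4767, 1745 and 5228. Skeletal muscle markers had 0 of 4 and 1 of 4 above it, and adrenal cortex markers 1 and 0 of 4. The part of cell content in these differences was not tested. When scaled on the 9 spike-in controls instead, 134 probe sets were higher and 459 lower.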

How the data were processed

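Total RNA of 3 rat samples was measured on 1 expression array each. The authors deposited a linear intensity for each probe set; its summary method, background correction and software are not stated in the labels. As deposited, the array means without the highest and lowest 2% of intensity values were 2503.7, 2503.9 and 2503.7. Control probe sets (59 of 8799) were left out of the probe sets compared. Of the other 8740, 7006 had 1 gene symbol in the platform annotation, 308 several and 1426 none; 6985 matched the RefSeq gene table of GRCr8.

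Values were taken to log2, scaled to the array median and then to equal medians over the probe sets above a first floor on every array, which moved the 0.0 h and 0.1 h arrays by 0.008 and 0.041. The floor is the 40th percentile of the scaled values. A gene was read from its probe set with the highest mean over the 3 arrays. Gene lists went by symbol, so a list can hold members of another function. The 55 gene lists, the comparison, the naming rule and the alternatives were chosen with earlier results of these data known, and the order of the scaling steps was picked among several with the earlier counts in view. Named genes came from 3 sources: in each list up to 4 members per direction that were 2-fold apart (failing that, the 2 brightest), genes with every probe set 2-fold apart, and the 12 genes at either end; not all are printed. Cds1, Canx, Atp5f1e, Pecam1, Vwf, Th, Dbh, the other marker genes, the genes with the promoter element and those that crossed the floor were chosen after their values were seen. No test was possible. Spreads over probe sets are the median absolute deviation times 1.4826. The calculation was tested on simulated data. Alternatives were the values as deposited, quantile and cyclic loess normalisation (limma 3.58.1, R 4.3.3), spike-in scaling, floors at the 20th and 60th percentiles, other readings of a gene, and subsets of probe sets; Python 3.11.15, NumPy 2.4.6 and pandas 2.3.3 were used.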

Additional observations from a re-analysis of the deposited data

Results flagged for a closer look

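Control probe sets are not themselves counted above, though the results of spike-in scaling, such as 134 higher and 459 lower, depend on 9 of them. Of all 59 control probe sets 19 were above the intensity floor of 263.9 on all 3 arrays, and 13 of these were brightest on the 0.1 h array. Spike-ins and the 3' probe sets of beta-actin and GAPDH were among the 13. Examples from the rest, chosen after the values were seen, follow. The probe set that reads the opposite strand of the 5' end of GAPDH had an intensity of 779.1 at 0.0 h, 1493 at 0.1 h and 947.0 at 1.0 h. The 5S ribosomal RNA control had 415.4, 782.6 and 564.6. The cause was not tested.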

How the results depend on the processing

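The log2 median of rc_ names lay below that of the other names by between 0.23 and 0.24 under the values as deposited, both normalisations, spike-in scaling and other floors. Making the mean of the spike-in probe sets equal moved the median of all probe sets by -0.27, to -0.26. It gave 134 higher and 459 lower, so 22.6% of the counted probe sets were higher against 58.8%. This share was 53.2% for the values as deposited, 51.7% with quantile and 53.5% with cyclic loess normalisation. Floors at the 20th and 60th percentiles gave 528 and 486, and 170 and 131, with 54.9% of genes of a single sign at the lower floor. Plain names alone gave 140 higher and 163 lower (46.2% higher). Spike-in scaling turned 23 of 29 positive medians of lists with at least 10 measured members negative, among them proteasome -0.11, ribosomal -0.083, antioxidant -0.084, P450 -0.12, lipid -0.10, neurotransmitter receptors -0.013, growth factors -0.14, developmental factors -0.074, apoptosis -0.050, plasma proteins -0.092 and antigen processing -0.10. The growth factor median was also negative with quantile normalisation (-0.016), the higher floor (-0.14), probe sets averaged (-0.019), second-brightest probe sets (-0.028) and names centred apart (-0.0089), and the cell cycle median on second-brightest probe sets (-0.0055). Second-brightest probe sets reversed Bmal1 (0.34), Ccnd2 (0.64), Dnaja2 (-0.064), Ephx2 (0.49), Map2k1 (-0.027), Rps15 (-0.59), Slc5a1 (-0.35), Slc8a1 (-0.050) and Sparc (-0.67). Of the printed 2-fold genes 90 of 115 stayed past 2-fold with names centred apart, 82 of 115 with spike-in scaling and 8 of 26 on second-brightest probe sets. Centring names apart, and a floor taken before the second scaling step (294 higher, 205 lower), were chosen after seeing the data. The cause of these changes was not tested. A description by protein length was not run, and no paired analysis was possible because each label has 1 array. Signal near the floor limits dim genes.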
